A study of Mus musculus with 16 samples.

Results

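The HoxB cluster genes are the 10 Hox genes on mouse chromosome 11, Hoxb1 to Hoxb9 and Hoxb13. They were taken by symbol from the 24452 genes of an RNA-seq table, and all 10 were found. The table comes from mouse embryonic stem cells that were differentiated with retinoic acid, a vitamin A derivative. The Suz12-KO line, with the genotype Suz12 -/-, was sampled at 0, 24, 48 and 72 h, and the wild-type line (WT, E14) at those same times. Both lines were grown in serum with LIF, a cytokine that keeps stem cells undifferentiated, up to 0 h. From then on LIF was left out and 1 uM all-trans retinoic acid was added. The mutation and the number of clones behind the Suz12-KO line are not described in the sources used here. The labels give 16 samples in 8 groups of 2, but the table holds 1 column per group, so no spread between replicates could be computed. Levels are RPKM as deposited, that is read numbers scaled to gene length and to the total of the column, and brackets hold 95% Poisson intervals that cover counting error only. All 10 genes reached 1 RPKM in at least 1 of the 8 columns. For Hoxb7, Hoxb8 and Hoxb13 that was 1 column only, and in each case a Suz12-KO column.

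Hox genes encode homeodomain transcription factors that give cells of the embryo their position along the head-to-tail axis. Within a cluster the genes lie in the order in which they are switched on, from Hoxb1 to Hoxb13, which is also the order of their domains from hindbrain to tail. In embryonic stem cells they are silent and carry H3K27 methylation, the mark placed by Polycomb repressive complex PRC2, of which Suz12 is a core subunit. Retinoic acid, bound to its nuclear receptors, switches on the Hoxb1 end of the cluster in the embryo.

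The columns held 25277999 to 32153765 reads in Suz12-KO cells and 24731176 to 28027373 reads in WT cells. Ratios and changes below are of scaled RPKM, that is RPKM over a median-of-ratios scaling factor of the column. On the log2 scale these factors were -0.26, 0.26, 0.27 and 0.17 in Suz12-KO cells and -0.52, -0.04, 0.08 and 0.10 in WT cells over the 4 times. Suz12 RNA was read in all columns, at 1.35 to 3.09 RPKM in those labelled Suz12-KO and at 0.995 to 2.94 RPKM in WT. Hprt, a purine salvage enzyme, had 525 to 1182 reads in each Suz12-KO column and 0 to 3 reads in each WT column, so the lines differ in more than the labelled gene. With the mutation not described, the Suz12 level does not check the label. Loss of Suz12 and other differences between the lines cannot be told apart. The 8 embryonic stem cell markers, among them Pou5f1 and Nanog, summed to 435.9 RPKM in Suz12-KO cells and 317.6 RPKM in WT cells at 0 h, with none at 0. By 72 h the sums were 8.78 RPKM in Suz12-KO cells and 5.74 RPKM in WT cells.

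Promoter sequences from RefSeq (build GRCm38.p6) were at hand for 3 of the 10 genes, Hoxb1, Hoxb4 and Hoxb8, which stand for the beginning, the middle and the later part of the gene order. Each runs from 250 bases before the gene start to 50 bases after it, on the plus strand. No other member had a promoter sequence at hand, so these 3 genes were not chosen by their time courses. Capitals mark TGATNG in Hoxb1, the core of sites bound by Pbx proteins together with Hox proteins, through which Hoxb1 is known to maintain its own expression in the mouse hindbrain. In Hoxb4 they mark AGGTCA, the element recognised by retinoic acid receptors, here on the opposite strand. In Hoxb8 they mark TTTATNG, the core recognised by Cdx proteins, which are known regulators of trunk Hox genes.
Hoxb1, chr11:96365508-96365807: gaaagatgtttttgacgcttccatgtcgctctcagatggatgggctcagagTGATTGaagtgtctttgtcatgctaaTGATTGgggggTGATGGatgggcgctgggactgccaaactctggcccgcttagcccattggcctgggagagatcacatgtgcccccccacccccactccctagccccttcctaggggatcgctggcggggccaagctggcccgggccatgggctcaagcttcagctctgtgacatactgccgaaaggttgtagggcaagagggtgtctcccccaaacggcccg
Hoxb4, chr11:96318017-96318316: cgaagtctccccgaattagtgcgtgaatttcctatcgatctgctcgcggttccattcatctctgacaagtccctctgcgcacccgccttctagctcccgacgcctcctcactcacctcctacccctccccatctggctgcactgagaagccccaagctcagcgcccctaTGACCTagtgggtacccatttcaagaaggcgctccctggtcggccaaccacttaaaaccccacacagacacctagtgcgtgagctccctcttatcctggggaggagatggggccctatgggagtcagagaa
Hoxb8, chr11:96281655-96281954: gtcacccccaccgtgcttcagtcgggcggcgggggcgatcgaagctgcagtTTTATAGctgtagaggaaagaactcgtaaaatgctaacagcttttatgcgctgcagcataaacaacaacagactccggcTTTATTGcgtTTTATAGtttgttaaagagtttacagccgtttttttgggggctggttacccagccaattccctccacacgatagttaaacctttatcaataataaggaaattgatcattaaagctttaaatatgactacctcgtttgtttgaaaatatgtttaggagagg
Hoxb1 held 3 TGATNG matches, which began 199, 173 and 162 bases before the start. At least 3 such matches, on either strand, were found in 1.20% of the 32851 promoters in the RefSeq table, and at least 1 in 32.6%. Hoxb4 held 1 AGGTCA element, 81 bases before the start, as did 16.3% of all promoters with at least 1. Hoxb8 held 3 TTTATNG matches, 199, 120 and 110 bases before the start, and at least 3 were found in 0.0639% of promoters. The letters TGATNG and TTTATNG were chosen after the sequences were seen, and a match is not a bound site. No promoter of the 3 held a direct repeat of AGGTCA with a spacing of 1, 2 or 5 bases (DR1, DR2 and DR5), which 0.0396%, 0.00913% and 0.00913% of all promoters did. The Hoxb8 window was rich in CpG pairs for its base content, with an observed over expected ratio of 0.970. The ratio was 0.593 for Hoxb4 and 0.379 for Hoxb1, against a median of 0.384 over all promoters.

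Before retinoic acid the cluster was close to silent in both lines. At 0 h the 10 genes together had 1 read in Suz12-KO cells, from Hoxb13, and 3 reads in WT cells, 1 each from Hoxb2, Hoxb9 and Hoxb13. The floor set for a count of 0 was 3 reads, which is 0.0266 to 0.0714 RPKM in Suz12-KO cells and 0.0280 to 0.0752 RPKM in WT cells, depending on gene length. The 95% Poisson intervals of a count of 0 reach slightly higher, up to 0.0878 RPKM in Suz12-KO cells and 0.0925 RPKM in WT cells. At this depth no HoxB gene could be seen to be on in Suz12-KO stem cells. In the authors' deposited table all 10 genes carry the mark for a difference between 72 and 0 h, in each line, and all 10 were higher at 72 h. The same holds for 19.0% of all 10860 genes kept in Suz12-KO cells and for 18.0% in WT cells. The table gives no threshold for these marks, and "rose" is used here for genes that carry one.

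**Figure D1:**
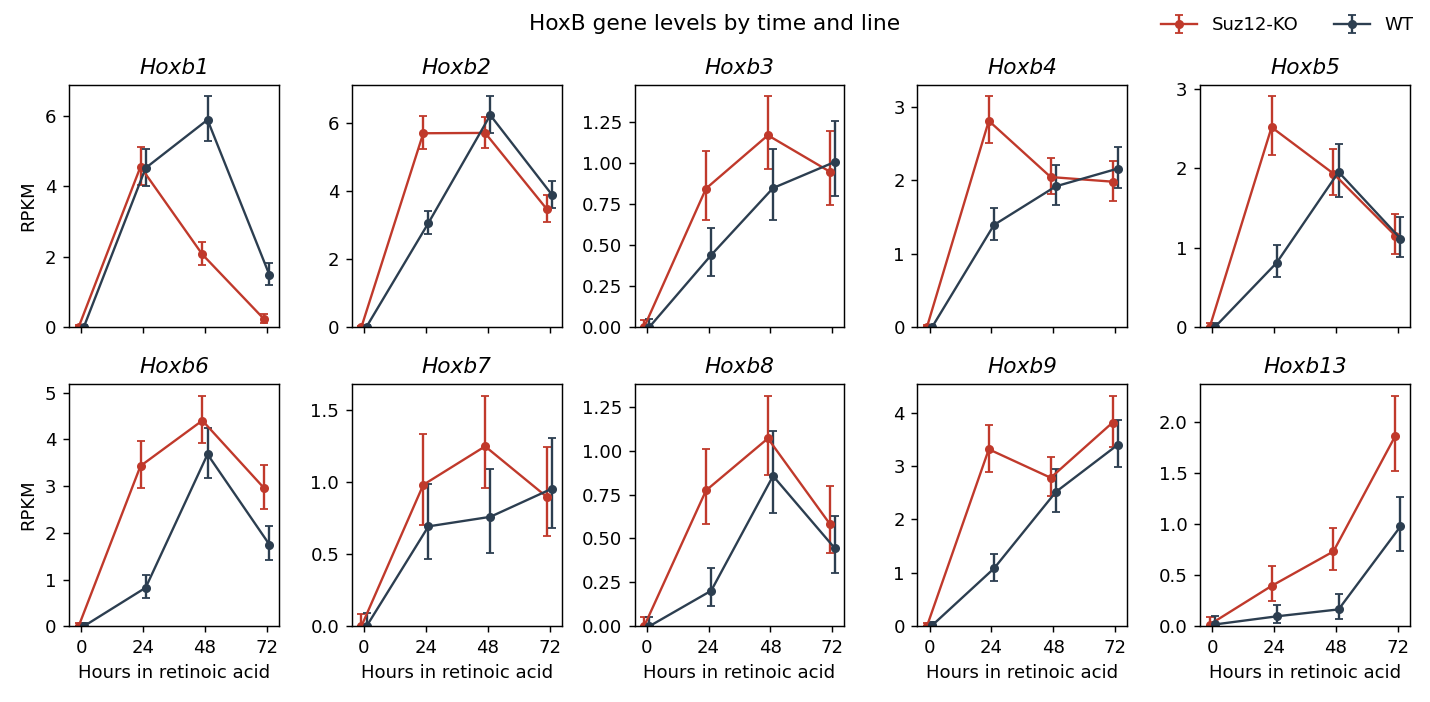
RPKM of each HoxB gene (vertical axis, its own scale per panel) against hours in retinoic acid, for Suz12-KO (red) and WT (dark blue) columns, with 95% Poisson intervals as bars. Hoxb1 goes down after 24 h in Suz12-KO cells and after 48 h in WT cells, most of the other genes are higher in Suz12-KO cells at 24 h, and Hoxb13 climbs through 72 h.

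Hoxb1 (ENSMUSG00000018973, chromosome 11, 96365752 to 96368256, plus strand) specifies the hindbrain segment from which the facial nerve arises, and of the 10 members it had the lowest Suz12-KO over WT ratio at 72 h. Hoxb1 stood at 0, 4.55, 2.06 and 0.221 RPKM at 0, 24, 48 and 72 h in Suz12-KO cells. In WT cells Hoxb1 stood at 0, 4.52, 5.89 and 1.48 RPKM at those times. Up to 24 h the deposited levels of both lines were close, and at 48 h Hoxb1 was lower than at 24 h in Suz12-KO cells but higher than at 24 h in WT cells. The 48 h level was 0.451 times (0.368 to 0.551) that at 24 h in Suz12-KO cells and 1.20 times (1.02 to 1.40) in WT cells. At 72 h it was 0.115 times (0.0599 to 0.203) the 48 h level in Suz12-KO cells and 0.248 times (0.195 to 0.314) in WT cells. Even so Hoxb1 rose over the whole course, and against a floor of 3 reads in the 0 h column its 72 h level in Suz12-KO cells was at least 3.48-fold higher, and that in WT cells at least 19.2-fold higher. These folds leave out the counting error at 72 h. In Suz12-KO cells 13 reads were left at 72 h, against 91 in WT cells.

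Hoxb2 (ENSMUSG00000075588, 96350525 to 96354012) acts beside Hoxb1 in the hindbrain and was among the most abundant members per length at every time after 0 h. It stood at 0, 5.71, 5.72 and 3.47 RPKM over the 4 times in Suz12-KO cells and at 0.0111, 3.07, 6.24 and 3.89 RPKM in WT cells. The Suz12-KO level at 24 h (5.23 to 6.22) was already that at 48 h (5.28 to 6.18), whereas the WT level at 48 h was 1.87 times (1.62 to 2.16) that at 24 h. Hoxb3 (ENSMUSG00000048763, 96323326 to 96347930), needed in the mouse for hindbrain and pharyngeal patterning, was lower per length. It stood at 0, 0.845, 1.17 and 0.948 RPKM in Suz12-KO cells and at 0, 0.439, 0.847 and 1.01 RPKM in WT cells. At 72 h the Hoxb3 intervals of the lines overlapped, with 0.741 to 1.19 RPKM in Suz12-KO cells and 0.798 to 1.25 RPKM in WT cells.

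Hoxb4 and Hoxb5 lie in the middle of the cluster. Hoxb4 (ENSMUSG00000038692, 96318267 to 96321638), known for expanding blood stem cells when overexpressed, stood at 0, 2.81, 2.05 and 1.98 RPKM in Suz12-KO cells. Its WT levels were 0, 1.39, 1.92 and 2.16 RPKM. The highest Hoxb4 level thus came at 24 h in Suz12-KO cells and at 72 h in WT cells. In WT cells, however, the 72 h level was 1.11 times (0.915 to 1.35) that at 48 h, so these 2 times could not be told apart. Hoxb5 (ENSMUSG00000038700, 96303336 to 96306121), a regulator of neural crest and shoulder position, stood at 0, 2.52, 1.94 and 1.15 RPKM in Suz12-KO cells and at 0, 0.812, 1.96 and 1.12 RPKM in WT cells. Between 24 and 48 h the level of Hoxb5 went to 0.765 times (0.619 to 0.945) in Suz12-KO cells and to 2.21 times (1.63 to 3.03) in WT cells. Its 48 and 72 h levels had overlapping intervals in the 2 lines.

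Hoxb6 to Hoxb9 pattern the trunk. Hoxb6 (ENSMUSG00000000690, 96292476 to 96301569) stood at 0, 3.43, 4.41 and 2.96 RPKM in Suz12-KO cells and at 0, 0.825, 3.68 and 1.75 RPKM in WT cells. Between 24 and 48 h the level of Hoxb6 went to 1.28 times (1.06 to 1.54) in Suz12-KO cells and to 4.10 times (2.97 to 5.76) in WT cells. Hoxb8 (ENSMUSG00000056648, 96281905 to 96285315), which marks dorsal spinal cord and a lineage of microglia in mice, stood at 0, 0.774, 1.07 and 0.583 RPKM in Suz12-KO cells and at 0, 0.202, 0.856 and 0.443 RPKM in WT cells. Both Hoxb6 and Hoxb8 were highest at 48 h in either line, but in WT cells they had reached only 24.4% and 25.7% of that level by 24 h. In Suz12-KO cells these shares were 78.2% and 72.6%, and the Hoxb8 ratio of 48 over 24 h there, 1.38 (0.973 to 1.97), held 1. Hoxb7 (ENSMUSG00000038721, 96286623 to 96290162), known in kidney duct development, was low in both lines at 0, 0.982, 1.25 and 0.897 RPKM in Suz12-KO cells and 0, 0.693, 0.759 and 0.956 RPKM in WT cells. With 29 to 62 reads per column after 0 h, the Hoxb7 intervals overlapped between all of these columns. Hoxb9 (ENSMUSG00000020875, 96271457 to 96276595), which shapes the thoracic skeleton, was higher at 72 h than at 48 h in both lines. It stood at 0, 3.31, 2.78 and 3.81 RPKM in Suz12-KO cells and at 0.0150, 1.08, 2.51 and 3.40 RPKM in WT cells.

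Hoxb13 (ENSMUSG00000049604, 96194316 to 96197447), a gene of the tail bud and prostate, lies 171 kb from Hoxb1 and 77 kb beyond Hoxb9, and it was the last to come up. It stood at 0.0167, 0.395, 0.733 and 1.87 RPKM in Suz12-KO cells and at 0.0176, 0.0970, 0.165 and 0.978 RPKM in WT cells. The 24 h level in Suz12-KO cells (0.250 to 0.593, 23 reads) lay above that at 0 h (0.000422 to 0.0928, 1 read). In WT cells the interval at 24 h (0.0356 to 0.211, 6 reads) and that at 48 h (0.0754 to 0.313, 9 reads) overlapped with 0 h, and only 72 h (0.740 to 1.27, 57 reads) stood clear of it. From 48 to 72 h Hoxb13 went to 2.73 times (1.94 to 3.88) in Suz12-KO cells and to 5.84 times (2.87 to 13.4) in WT cells, while Hoxb1 went down in both.

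**Figure D2:**
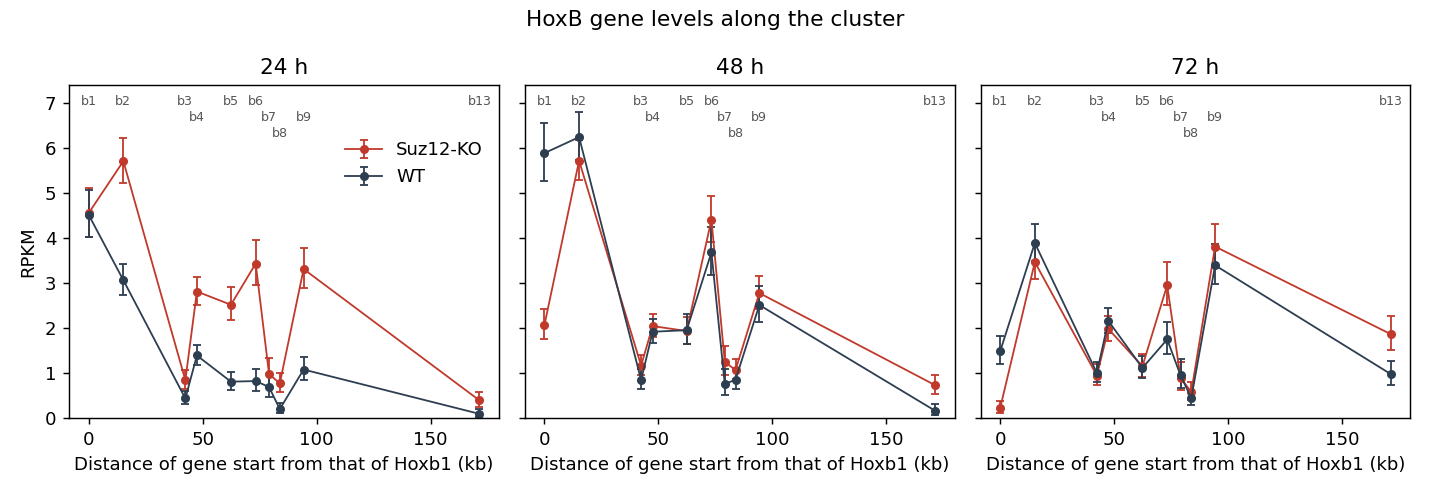
RPKM of the HoxB genes (vertical axis) against the distance of each gene start from that of Hoxb1 in kb, at 24, 48 and 72 h, for Suz12-KO (red) and WT (dark blue) with 95% Poisson intervals. Lines join genes in cluster order and b1 to b13 name them. The lines lie close at Hoxb1 at 24 h and apart at most genes beyond it, and at 48 h they are apart at Hoxb1 and Hoxb13.

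The order of induction was described in 3 ways. The earliest time at 1 RPKM or more was 24 h for 6 members, 48 h for 3 and 72 h for 1 in Suz12-KO cells. In WT cells it was 24 h for 4 members, 48 h for 2 and 72 h for 1, and 3 members did not reach it. The WT genes at 1 RPKM by 24 h were Hoxb1, Hoxb2, Hoxb4 and Hoxb9, and Hoxb5 and Hoxb6 joined them in Suz12-KO cells. At 0, 24, 48 and 72 h the members at 1 RPKM or more numbered 0, 6, 9 and 6 in Suz12-KO cells, where the shares over all genes were 32.3%, 37.5%, 38.0% and 37.0%. In WT cells they numbered 0, 4, 6 and 7, and the shares over all genes were 29.9%, 34.9%, 36.5% and 37.0%. With scaled RPKM the members numbered 0, 6, 7 and 6 in Suz12-KO cells and 0, 4, 6 and 6 in WT cells. Some members thus lay close to the threshold, and shares over all genes were not computed on the scaled values. Secondly, the 24 h interval lay above that at 0 h for 10 of 10 members in Suz12-KO cells and 9 of 10 in WT cells, all but Hoxb13. The order in which Hoxb1 to Hoxb9 started cannot be read from these times, since all were above 0 h by 24 h. Of the 5435 kept genes with recovered reads, 54.1% passed this rule in Suz12-KO cells, against 50.6% in WT cells. At 48 h all 10 members passed it in the Suz12-KO line, where 53.2% of genes did, and 9 in WT, where 56.2% did. At 72 h all 10 passed in each line, where 47.2% of genes did in the Suz12-KO line and 56.1% in WT.

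Thirdly, each level was set against the highest in its line, on the scaled values. At 24 h the median member stood at 80.2% of its highest level in Suz12-KO cells, against 46.6% in WT cells. Hoxb1 was at 100% in Suz12-KO cells, against 83.5% in WT cells, and Hoxb13 was at 19.9% in Suz12-KO cells, against 10.9% in WT cells. Between the ends the shares did not follow the gene order strictly, since Hoxb7 was at 80.0% in WT cells but its neighbours Hoxb6 and Hoxb8 at 24.4% and 25.7%. Over the 10 genes the share at 24 h went down with gene order, with a Spearman rho of -0.59 in Suz12-KO cells, against -0.71 in WT cells. These values describe 1 locus read in shared columns and carry no test. The highest level came at 24 h for 4 members, 48 h for 4 and 72 h for 2 in Suz12-KO cells, and at 24 h for none, 48 h for 5 and 72 h for 5 in WT cells. No share over all genes was computed for these counts, and several rest on differences within counting error. In WT cells the 72 over 48 h ratio was 1.17 (0.832 to 1.66) for Hoxb3 and 1.11 (0.915 to 1.35) for Hoxb4. For Hoxb7 it was 1.24 (0.748 to 2.08). In Suz12-KO cells the 48 over 24 h ratio was 1.27 (0.838 to 1.93) for Hoxb7 and 1.38 (0.973 to 1.97) for Hoxb8. Hoxb2 counts under 24 h in Suz12-KO cells, although its 48 h level was 99.7% of that at 24 h and the higher of both as deposited.

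**Figure D3:**
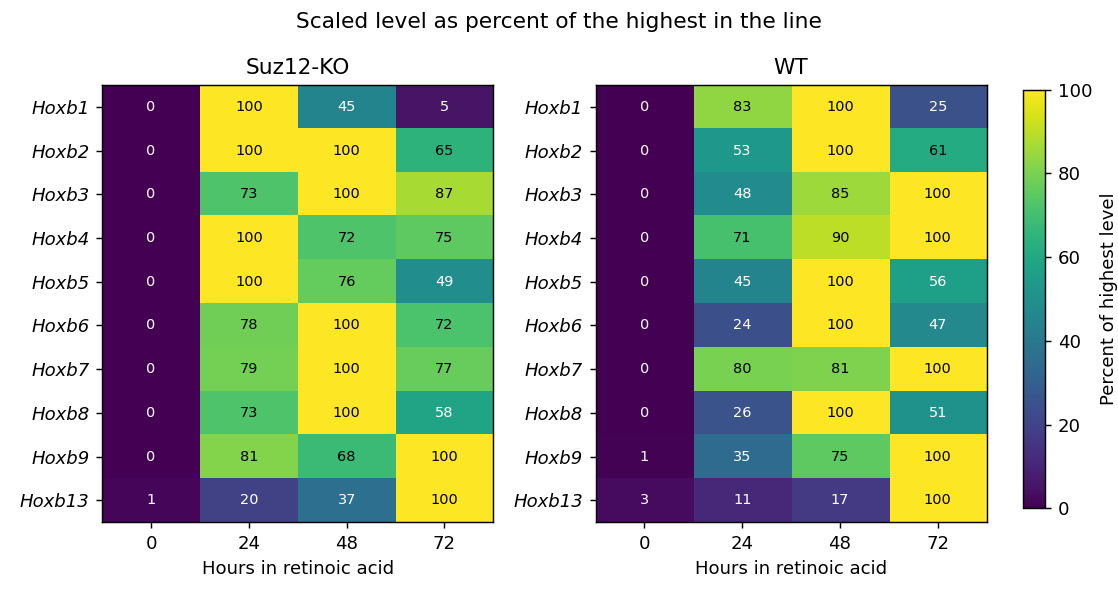
Scaled level of each HoxB gene (rows, in cluster order) at each time (columns, hours in retinoic acid) as a percent of its highest level in that line, Suz12-KO left and WT right, rounded to whole percents. At 24 h all Suz12-KO genes but Hoxb13 are at 72.6% or more, and WT genes range from 10.9% to 83.5%.

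From 0 h to 24 h, 9 of 10 members were up by 2-fold or more in the Suz12-KO line and 7 of 10 in WT, where 6.13% and 4.50% of all kept genes were. These folds are on the log2(scaled RPKM + 0.5) scale, which understates the change of low genes and depends on the pseudocount. At 72 h the members' median change was 3.69 in the Suz12-KO line and 3.70 in WT with a pseudocount of 0.1, and 1.20 and 1.14 with a pseudocount of 1. The members' median log2 change at 24, 48 and 72 h was 2.45, 2.11 and 1.83 in the Suz12-KO line, against 1.42, 2.22 and 1.77 in WT. Medians over all kept genes were between 0.00 and 0.01. At 48 h 10 members were up by 2-fold or more in the Suz12-KO line, where 11.7% of genes were, and 9 in WT, where 12.4% were. At 72 h 9 were up in each line, where 16.7% of genes were in the Suz12-KO line and 16.1% in WT. The 3 times of a line share its 0 h column. Between 24 and 48 h the ratio's counting interval lay above 1 for 3 members and below 1 for 3 in Suz12-KO cells, where 29.4% and 28.4% of genes with recovered reads did so. In WT cells it lay above 1 for 8 members and below 1 for none, against 31.6% and 27.1% of genes. For Hoxb1, Hoxb4 and Hoxb5 it lay below 1 in Suz12-KO cells and above 1 in WT cells, as for 2.32% of genes. From 48 to 72 h 5 members in each line were lower beyond counting error, and 2 were higher, Hoxb9 and Hoxb13. Of all genes 26.3% were lower in Suz12-KO cells, against 21.8% in WT cells, and 28.9% and 23.0% were higher.

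At 0 h no member was 2-fold apart between the lines, where 3.16% of kept genes were higher in Suz12-KO cells by that much and 2.15% lower. Scaled Suz12-KO over WT ratios at 24 h had intervals above 1 for 8 of 10 members, where 22.6% of genes with recovered reads did so. Of the 7 members that reached 1 RPKM in a WT column too, that is without Hoxb7, Hoxb8 and Hoxb13, 6 lay above 1 and 1 below. The 24 h ratios were 1.51 (1.31 to 1.75) for Hoxb2, 1.56 (1.03 to 2.40) for Hoxb3 and 1.64 (1.35 to 2.00) for Hoxb4. Further along, the ratios were 2.52 (1.89 to 3.40) for Hoxb5, 3.38 (2.45 to 4.74) for Hoxb6, 3.11 (1.73 to 5.93) for Hoxb8 and 2.49 (1.92 to 3.26) for Hoxb9. Hoxb13 gave 3.31 (1.31 to 9.93), and Hoxb7, at 1.15 (0.699 to 1.91), could not be told from 1. Hoxb1 stood below 1 at 0.819 (0.693 to 0.968) after scaling, as did 22.4% of genes, but at 1.01 (0.852 to 1.19) as deposited, so its direction depends on the scaling. On the deposited scale the same number of members, 8, lay above 1. Without the scaling factors the 24 h ratio of every gene is higher, so the 22.6% does not apply there. The share over all genes was not computed on the deposited scale. On the log2(scaled RPKM + 0.5) scale 2 members, Hoxb6 and Hoxb9, were at least 2-fold higher, where 2.03% of kept genes were, and none was 2-fold lower, where 2.08% were.

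Marker sums of other cell types, given in RPKM as deposited and not scaled, also differed at 24 h. The log2 scaling factor at that time was 0.26 for the Suz12-KO column, against -0.04 for the WT column. Scaling would therefore lower the Suz12-KO sums relative to WT. After scaling the embryonic stem cell sum would be lower in Suz12-KO than in WT cells, the reverse of the deposited values below. The fibroblast and mesoderm sums would lie closer together. Whether the sums differ beyond counting error was not tested. The 7 primitive and visceral endoderm markers summed to 6.13 RPKM in Suz12-KO cells and 1.97 RPKM in WT cells, with Afp at 0 in WT. The 6 neural markers summed to 12.2 RPKM in Suz12-KO cells and 7.12 RPKM in WT cells, the 6 fibroblast markers to 2.34 and 1.79 RPKM, the 6 mesoderm markers to 1.44 and 1.08 RPKM, and the 6 trophoblast markers to 2.17 and 3.70 RPKM in that order of lines. Of these lists Olig2 in WT cells, Col3a1 in WT cells and Mesp1 in Suz12-KO cells were at 0. The embryonic stem cell markers were at 138.9 RPKM in Suz12-KO cells and 129.1 RPKM in WT cells. The part of these in the HoxB differences was not tested. In such bulk RNA, fewer cells that express a gene and less RNA per cell cannot be told apart.

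At 48 h every scaled ratio from Hoxb3 to Hoxb9 had an interval that held 1, from 0.871 (0.692 to 1.10) for Hoxb5 to 1.45 (0.917 to 2.33) for Hoxb7. Hoxb1 was lower in Suz12-KO cells at 0.308 (0.253 to 0.374), the one member at least 2-fold lower, where 2.98% of kept genes were, and none was 2-fold higher on the log2(scaled RPKM + 0.5) scale, where 1.69% were. Hoxb13 was higher at 3.91 (1.91 to 9.03), with 52 reads in Suz12-KO cells, against 9 in WT cells. Hoxb2 was slightly lower at 0.806 (0.718 to 0.906), which as deposited was 0.916 (0.816 to 1.03). In all, intervals lay above 1 for 1 member and below 1 for 2, against 21.7% and 24.1% of genes with recovered reads. As deposited they lay above 1 for 3 members, with Hoxb3 and Hoxb7 added, and below 1 for Hoxb1 alone. Shares over all genes were not computed on the deposited scale. Of the 7 members that reached 1 RPKM in a WT column too, 0 lay above 1 after scaling and 2 lay below.

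At 72 h the ratio of Hoxb1 was 0.143 (0.0733 to 0.257), again as the one member at least 2-fold lower, where 3.01% of kept genes were, and none was 2-fold higher, where 2.45% were. Hoxb6 was higher at 1.61 (1.24 to 2.10) and Hoxb13 at 1.82 (1.31 to 2.57), so 2 intervals lay above 1, where 24.4% of genes' did. Hoxb2 lay just below 1 at 0.852 (0.729 to 0.995) and not as deposited (0.891, 0.763 to 1.04), so 2 lay below, where 27.3% of genes' did. Of the 7 members that reached 1 RPKM in a WT column too, 1 lay above 1, Hoxb6, and 2 lay below. Cyp26a1, which encodes a retinoic acid-degrading enzyme, had a 72 h level of 82.6 RPKM in Suz12-KO cells, against 28.7 RPKM in WT cells, and the endoderm markers summed to 25.6 RPKM in Suz12-KO cells and 9.18 RPKM in WT cells. Their part in the Hoxb1 difference was not tested. With 1 column per group a single time was given no test, and a trend over time in the difference between the lines was not fitted.

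**Figure D4:**
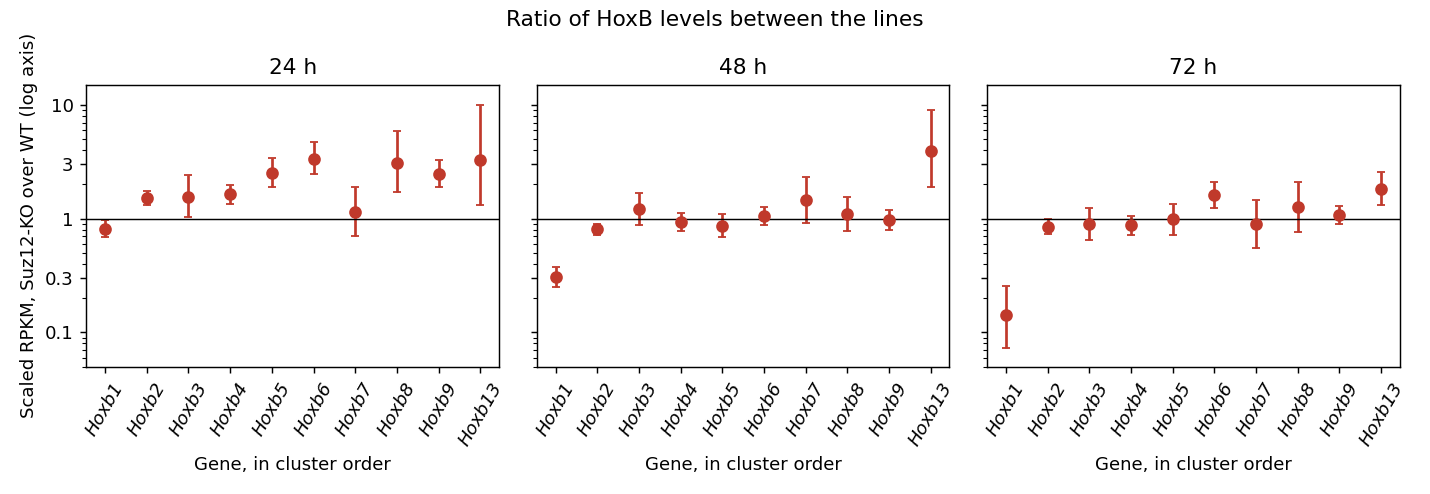
Ratio of scaled RPKM in Suz12-KO over WT (vertical, log axis) for each HoxB gene in cluster order at 24, 48 and 72 h, with exact 95% counting intervals and a line at 1. At 24 h the ratios lie above 1 from Hoxb2 on except at Hoxb7, whose interval holds 1, and at 48 and 72 h Hoxb1 lies far below 1 and Hoxb13 above it.

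Averaged over the 4 times, no member passed a limma test of the line difference with time as a block, which is a test of how evenly a difference held over time and not of the spread between cultures. None of the 10 passed at an adjusted p of 0.05, where 3.18% of the 10860 kept genes passed as higher and 2.41% as lower in Suz12-KO cells. At an unadjusted p of 0.05 Hoxb1 (lower) and Hoxb13 (higher) passed, where 24.0% of genes did in either direction. Hoxb13 had entered the fit through a Suz12-KO column alone, so its direction is no independent support. The averaged log2 difference, Suz12-KO less WT, was -0.79 for Hoxb1 (standard error 0.28, limma adjusted p = 0.161, between 0.0770 and 0.438 under the alternatives), and after scaling it was lower at 24, 48 and 72 h, while as deposited the 24 h ratio was 1.01. For Hoxb13 it was 0.46 (standard error 0.18, limma adjusted p = 0.188, between 0.0885 and 0.456), and it was higher at 24, 48 and 72 h. Hoxb6 followed at 0.49 (standard error 0.23, limma adjusted p = 0.259), and the other 7 lay between 0.00 and 0.25 with adjusted p from 0.448 to 1.00. A p above the threshold does not show that the lines were alike.

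The ranking of the members by level changed over time. At 24 h it ran Hoxb2, Hoxb1, Hoxb6, Hoxb9, Hoxb4 and Hoxb5 in Suz12-KO cells and Hoxb1, Hoxb2, Hoxb4, Hoxb9, Hoxb6 and Hoxb5 in WT cells, from high to low. In Suz12-KO cells neighbours from Hoxb6 to Hoxb5 in this ranking had overlapping intervals, and in WT cells all neighbours from Hoxb4 down did. At 72 h Hoxb9 led in Suz12-KO cells, with Hoxb2 next to it within counting error, and Hoxb1 was last. In WT cells Hoxb2 led, with Hoxb9 within counting error, and Hoxb8 was last. Hoxb1 made up 18.0% of the summed RPKM of the cluster at 24 h, 8.90% at 48 h and 1.24% at 72 h in Suz12-KO cells, and 34.4%, 23.7% and 8.63% in WT cells. The sum itself was 25.3, 23.2 and 17.9 RPKM at 24, 48 and 72 h in Suz12-KO cells and 13.1, 24.8 and 17.2 RPKM in WT cells. Levels between genes rest on the gene lengths behind the RPKM, which the sources used here do not give. The smallest lengths that turn the values into whole reads were 3006 bases for Hoxb3 and 4149 bases for Hoxb4, against 4251 and 2566 exonic bases in GENCODE M21.

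Non-coding RNAs are read from the same locus. The antisense genes Hoxb5os (minus strand, 96291024 to 96306910), across Hoxb5 and Hoxb6, and Hoxb3os (minus strand, 96343072 to 96354691), across Hoxb2 and part of Hoxb3, had few reads. Hoxb5os stood at 0, 0.163, 1.03 and 0.909 RPKM in Suz12-KO cells and 0, 0, 0.871 and 1.47 RPKM in WT cells. Hoxb3os stood at 0, 0.550, 0.496 and 0.198 RPKM in Suz12-KO cells and at 0, 0.467, 0.760 and 0.315 RPKM in WT cells. Whether strand was used in the counting is not stated, so reads of these genes and of Hoxb2, Hoxb3, Hoxb5 and Hoxb6 may be mixed where they overlap. Of the 12 neighbours found in the table, from Calcoco2 to Skap1 on either side of the cluster, 5 were kept, and of these 2 carry the authors' mark as higher and 1 as lower in Suz12-KO cells, and 1 as higher in WT cells. Calcoco2, the autophagy receptor gene beyond the Hoxb13 end, fell in Suz12-KO cells, with 4.22, 6.15, 2.97 and 1.12 RPKM over the 4 times, against 1.77, 4.95, 2.49 and 1.00 RPKM in WT cells, where it is not marked. Mir196a-1 stood at 0.721, 0.371, 3.05 and 3.49 RPKM in Suz12-KO cells and 0.759, 2.10, 0.793 and 3.34 RPKM in WT cells and is not marked. Small RNA was removed during extraction, so the mature miRNA was not measured.

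Among the other Hox genes 10 of 27 were kept, and all 10 rose in both lines, with median log2 changes at 72 h of 2.12 in Suz12-KO cells, against 1.74 in WT cells. At 24 h 2 of the 10 were higher in the Suz12-KO line by 2-fold or more, where 2.03% of kept genes were, and none lower, where 2.08% were. At 48 h none was higher and 1 lower, where 1.69% and 2.98% of kept genes were. At 72 h 1 was higher and none lower, where 2.45% and 3.01% were. The median log2 difference between the lines was 0.43, -0.26 and -0.24 at 24, 48 and 72 h. Hoxa5, a gene of the HoxA cluster that patterns the neck and lung, stood at 0, 12.7, 8.33 and 13.8 RPKM in Suz12-KO cells and 0, 3.35, 7.24 and 11.1 RPKM in WT cells. Hoxc5 stood at 0, 1.17, 9.001 and 8.77 RPKM in Suz12-KO cells and 0, 0.185, 4.88 and 5.33 RPKM in WT cells.

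Hox proteins bind DNA with cofactors of the Pbx, Meis and Pknox families. Of 8 kept cofactor genes 5 rose in Suz12-KO cells, against 7 in WT cells, with none falling and medians of 1.11 and 1.87 on the log2 scale. Meis1 stood at 0.291, 3.02, 7.80 and 5.99 RPKM in Suz12-KO cells and at 0.0368, 0.558, 5.27 and 6.43 RPKM in WT cells. Meis1 was thus higher in Suz12-KO cells at 0 h as well as at 24 h. Meis2 stood at 0.553, 3.13, 2.92 and 2.18 RPKM in Suz12-KO cells and 0.0421, 1.47, 3.22 and 3.96 RPKM in WT cells. Over the 8 kept cofactors the median Suz12-KO minus WT difference was 0.37 at 0 h and 0.60 at 24 h. At each of these times 1 was at least 2-fold higher, where 3.16% and 2.03% of kept genes were. None was 2-fold lower, where 2.15% and 2.08% were. The median difference was 0.00 at 48 h and -0.22 at 72 h, with none 2-fold apart.

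Of 12 kept genes known to act upstream of Hoxb genes, in retinoic acid signalling or as direct regulators, 6 rose and 2 fell in Suz12-KO cells, and 7 rose and 2 fell in WT cells. The median log2 change over them was 0.87 in the Suz12-KO line, against 1.52 in WT. Of all kept genes 19.0% rose in the Suz12-KO line and 18.0% in WT. Rarb, the receptor gene that retinoic acid induces, stood at 0.0363, 4.75, 9.09 and 11.1 RPKM in Suz12-KO cells and at 0.0255, 2.40, 9.18 and 8.84 RPKM in WT cells. The binding protein gene Crabp2 stood at 0.445, 30.8, 74.5 and 22.0 RPKM in Suz12-KO cells and 0.879, 8.07, 66.1 and 26.5 RPKM in WT cells. Cyp26a1 stood at 0.0622, 64.6, 83.9 and 82.6 RPKM in Suz12-KO cells and at 0.0218, 65.0, 50.4 and 28.7 RPKM in WT cells. At 24 h the median difference between the lines was 0.28 over these 12 genes, with 2 at least 2-fold higher and none lower. It was -0.04 at 48 h, with none higher and 1 lower, and -0.05 at 72 h, with 1 higher and 1 lower. Of all kept genes 2.03%, 1.69% and 2.45% were higher by that much at 24, 48 and 72 h, and 2.08%, 2.98% and 3.01% lower.

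The 5 coding genes whose scaled log2 pattern over the 8 columns was most like the mean of the members were Rasl10b (Pearson r = 0.995), Fam83g (0.994), Mark3 (0.994), Castor2 (0.992) and Tmem246 (0.992), out of 9755 genes. Rasl10b, a Ras-like GTPase gene, stood at 0.0733, 2.42, 1.83 and 1.49 RPKM in Suz12-KO cells and at 0.0386, 1.03, 2.02 and 1.59 RPKM in WT cells. For Hoxb1 they were Snx14 (0.988), Selenop (0.977), Stra8 (0.975), Ms4a4d (0.973) and Hace1 (0.971). Stra8, a retinoic acid target of germ cells, stood at 0.327, 43.7, 12.0 and 3.62 RPKM in Suz12-KO cells and at 0.280, 80.7, 44.5 and 11.7 RPKM in WT cells. Like Hoxb1 it was lower in Suz12-KO cells at 48 and 72 h. These r values were picked as the highest of many and are descriptions over 8 columns that share their libraries.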

How the data were processed

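RNA-seq of rRNA-depleted RNA was analysed from 16 labelled samples in 8 groups. Per the file headers and the submitters' processing notes, the authors deposited RPKM for Ensembl release 72 genes (GRCm38, mm10), naming TopHat, featureCounts and DESeq2 without versions. Each group has 1 column, and the sources used here do not say how replicates were pooled. The deposited table also holds the authors' TRUE or FALSE marks for 72 h against 0 h, without direction or threshold.

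Symbols, lengths and coordinates came from GENCODE M21 (GRCm38), and 595 genes had no symbol. Whole reads were recovered from RPKM by each column's total and gene length, for 80 of 80 member values within 0.01 reads. The annotated length served for 4 members and the smallest length giving whole reads for 6, which for Hoxb3 may be too short and its interval too wide. Intervals from reads cover counting error only. They use exact Poisson limits for levels and exact Clopper-Pearson limits for ratios. Genes at 1 RPKM or more in at least 1 column (10860) were kept. RPKM were divided by median-of-ratios factors, and changes are differences of log2(scaled RPKM + 0.5). Reads of other genes were recovered only where the annotated length gave whole reads in all 8 columns. Another length was searched for only for Hox genes, Suz12, Hprt and some non-coding RNAs of the locus. Genes with recovered reads among those kept numbered 5435. Shares over them describe a subset, formed by a rule that 6 members did not meet with their annotated length.

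limma 3.58.1 (R 4.3.3; trended empirical Bayes, time as a block, Benjamini-Hochberg adjustment over all kept genes) tested the line difference averaged over time and was tested on simulated data. Members, lists, markers and tests were chosen with earlier results of these data known. Named non-members are the 3 genes of each list with the largest 72 h change and the 5 coding genes closest in pattern to the members' mean and to Hoxb1. Some of the genes this rule names are not reported here. Hoxb3os and Hprt were named with their values known. Alternatives were other RPKM thresholds, pseudocounts, filters and scalings and leaving out each time.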

Additional observations from a re-analysis of the deposited data

Results flagged for a closer look

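For Hoxb1, Hoxb4 and Hoxb5 the lines moved in opposite directions between 24 and 48 h, each beyond its counting interval. The log2 change was -0.96 in Suz12-KO cells, against 0.24 in WT cells for Hoxb1, a difference of -1.19. For Hoxb4 it was -0.37 in Suz12-KO cells, against 0.26 in WT cells, a difference of -0.63. For Hoxb5 it was -0.30 in Suz12-KO cells, against 0.81 in WT cells, a difference of -1.12. Among all 5435 kept genes with recovered reads, 2.32% were lower at 48 than at 24 h in Suz12-KO cells but higher in WT cells by this measure. The difference was not tested, since each group has 1 column.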

How the results depend on the processing

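No paired analysis was possible because the table holds 1 pooled column per group of replicates, so replicates could be neither paired nor left out, and the block in the limma test is the time. The number of members at 1 RPKM or more moved with a threshold of 2 RPKM to 5 in Suz12-KO cells at 48 h, 3 in Suz12-KO cells at 72 h, 2 in WT cells at 24 h and 3 in WT cells at 72 h. With 0.5 RPKM it was 7 in WT cells at 24 h, and the members first at the threshold by 24 h in WT cells changed alike, to 7 and 2. With a pseudocount of 1 the members at least 2-fold higher at 24 h in WT cells were 4, those 2-fold higher in Suz12-KO than WT cells at 24 h 1, and those 2-fold lower at 72 h 0. With a pseudocount of 0.1 those 2-fold higher in Suz12-KO cells were 5 at 24 h and 1 at 48 h. Genes passing limma were 345 (up in Suz12-KO cells) and 262 (down), against 1135 and 173 as deposited, 59 and 73 with no filter, 52 and 82 without the 24 h columns, 18 and 47 without the 48 h columns, and 73 and 99 without the 72 h columns. No member passed under any of these settings. The averaged difference of Hoxb2, which was 0.00, turned positive as deposited (0.13), with a pseudocount of 1 (0.0033) and without the 0 h (0.0149), 48 h (0.0944) or 72 h columns (0.0667). Those of Hoxb4, Hoxb5 and Hoxb9 turned to -0.0736, -0.0554 and -0.0016 without the 24 h columns. The cause was not tested. The other counts, 130 of 152, stayed within 1.5 times, and many of them were counts of 0 that stayed at 0. This limit also takes in shifts of members at the threshold in Suz12-KO cells. At 48 h these went from 9 to 7 with scaled RPKM, and at 24 h from 6 to 9 with 0.5 RPKM. Hoxb7, Hoxb8 and Hoxb13 had no value where 1 RPKM was asked in 2 columns. Of the values for single members 320 kept their place, 39 moved and 8 averaged differences turned sign. Differences between the lines at single times that changed sign are counted as kept or moved. As deposited that of Hoxb1 at 24 h went from -0.26 to 0.010. Hoxb4 and Hoxb9 at 48 h went from -0.072 and -0.032 to 0.074 and 0.12, and Hoxb5 at 72 h from -0.012 to 0.033. Scaled by the sum over coding genes, Hoxb9 at 72 h went from 0.089 to -0.0043. Of the log2 changes from 0 to 72 h, all 10 in each line moved with a pseudocount of 0.1, and 8 in Suz12-KO cells and 9 in WT with a pseudocount of 1. Depth limits values with few reads, such as Hoxb1 in Suz12-KO cells at 72 h (13 reads) and Hoxb13 in WT cells at 24 and 48 h (6 and 9 reads).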
